A study of Mus musculus with 8 samples.

Results

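The nuclear-encoded subunits of the respiratory chain and of ATP synthase were taken from the gene count table by symbol. Members were the rows named as Nduf subunits, Sdha to Sdhd, Uqcr genes, subunits Cox5 to Cox8, Cyc1 and Atp5 genes, with pseudogenes (-ps) left out. The symbol pattern for Cox4 to Cox8 matched no Cox4 gene, so Cox4i1 and Cox4i2 are not members. Ndufab1 was missed as well. The rule found 83 of the 55487 rows of the table, which carry 82 distinct symbols because Atp5o is listed under 2 identifiers. Grouped by symbol alone, they comprised 36 genes of complex I, 4 of complex II, 9 of complex III, 16 of complex IV and 18 of complex V. Their place in a complex was not checked further. Ndufa4 was thus counted in complex I, and Atp5s, which RefSeq names Dmac2l, in complex V. Of these, 76 had enough reads for the test and 7 did not: Cox6a2, Cox6b2, Cox7a1, Cox7b2, Cox8b, Cox8c and the second Atp5o row.

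Per the labels and the methods of the study, the libraries came from subcutaneous tumors of MC38, a mouse colon carcinoma line. The tumors were grown in Bmal1+/+ mice and in Bmal1-/- mice, both bred from Bmal1+/- founders. In Bmal1-/- mice the knockout of the circadian factor Bmal1 is not limited to a cell type. The implanted cancer cells carried GFP, and the RNA was taken from the GFP-negative remainder, called the stromal vascular fraction (SVF). There were 4 libraries with each label, and the total count lay between 14054825 and 18449143 per library. Sex, age and time of collection are not given in the sources used here, and beyond the 4 mice in each group nothing states how the libraries relate to animals, so the p-values measure the spread between these libraries. Levels are given as CPM, the count relative to the library total after TMM scaling, and every fold change is the log2 ratio of the libraries labelled Bmal1-/- to those labelled Bmal1+/+, with its standard error.

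The libraries did not match their labels at the deleted gene. Arntl, the gene of Bmal1, stood at 0.959 to 2.70 CPM in the libraries labelled Bmal1+/+ and at 30.1 to 34.95 CPM in those labelled Bmal1-/-, a log2 fold change of 4.38 ± 0.28 (edgeR adjusted p = 6.37e-06). The table does not give counts by exon. Because this level goes against the label, the directions below belong to the libraries as labelled and not to a checked genotype. Of 5 sex transcripts, Xist was lower and the 4 Y-linked genes were higher in every library labelled Bmal1-/-, so sex and label cannot be told apart. Transcripts of 12 hepatocyte markers summed to 112100 to 126200 CPM and 70300 to 79980 CPM in the respective groups, against 139 to 221 CPM and 105 to 110 CPM for 10 fibroblast markers. The lower hepatocyte sum was that of Alb alone (64200 to 71740 CPM and 12720 to 18800 CPM), as the other 11 markers summed to 47930 to 54500 CPM and 53050 to 67260 CPM, with Apoa1 and Fgb called higher. Marker sums of macrophages (8 genes) were 532 to 642 CPM and 250 to 466 CPM, those of endothelium (7 genes) 227 to 264 CPM and 151 to 215 CPM. All 11 markers of skeletal and heart muscle were at or under 3 counts in every library, and Ucp1, which defines brown fat, was at 0 in all of them. The 6 brown fat markers summed to 1.74 to 8.05 CPM and 747 to 1651 CPM, nearly all of it Elovl3, an enzyme that liver also makes. The 8 epithelial or colon tumor markers summed to 192 to 238 CPM and 235 to 374 CPM, nearly all of it Krt8 and Krt18, neither of which was called. Of the others, Epcam (adjusted p = 0.0497) and Krt19 (adjusted p = 0.022) were lower, Cdh1 (adjusted p = 0.00156) was higher, and Cdx2 was at 0 in every library. Hepatocyte transcripts stood above the fibroblast, macrophage and endothelial ones in every library, which goes against the labelled stromal source. The part of these cell types in the results was not tested, and in bulk RNA fewer cells of a type and less RNA per cell cannot be told apart.

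Complexes I and II pass electrons from NADH and from succinate to coenzyme Q, complex III passes them on to cytochrome c, and complex IV reduces oxygen. Complexes I, III and IV pump protons across the inner membrane of the mitochondrion, and complex V, the ATP synthase, lets them flow back to make ATP. Each complex except complex II also contains subunits encoded by the mitochondrial genome, so that the nuclear and the mitochondrial products are assembled together. Several complex IV and complex V subunits exist as isoforms of different tissues, and liver and heart are classical tissues of high respiratory content. The promoters of these genes are known targets of the factors NRF1, GABP (an ETS factor) and YY1, and of the estrogen-related receptors (ERR).

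The bases just before the RefSeq start are shown for the called member of complex II and for 2 called members of complex I, to let the letters be compared with the changes below. They read 5′ to 3′ on the strand of the gene (build GRCm38.p6), and capitals mark a match to one of 5 motifs on either strand. The motifs were NRF1 (GCGCNTGCG), ETS (CCGGAAG), ERR (TCAAGGTCA), the E-box bound by Bmal1 and Clock (CACGTG) and YY1 (AAGATGGCG). No motif is contained in another.
Sdhd (chr9:50603850-50603939, minus strand, 90 bases up to the start): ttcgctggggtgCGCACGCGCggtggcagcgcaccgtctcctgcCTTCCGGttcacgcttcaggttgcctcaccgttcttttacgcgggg
Ndufv3 (chr17:31519951-31520114, plus strand, 164 bases up to the start): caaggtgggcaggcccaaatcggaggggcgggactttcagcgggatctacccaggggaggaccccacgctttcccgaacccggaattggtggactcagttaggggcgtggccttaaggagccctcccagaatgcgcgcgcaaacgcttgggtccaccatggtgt
Ndufs5 (chr4:123718187-123718436, minus strand, 250 bases up to the start): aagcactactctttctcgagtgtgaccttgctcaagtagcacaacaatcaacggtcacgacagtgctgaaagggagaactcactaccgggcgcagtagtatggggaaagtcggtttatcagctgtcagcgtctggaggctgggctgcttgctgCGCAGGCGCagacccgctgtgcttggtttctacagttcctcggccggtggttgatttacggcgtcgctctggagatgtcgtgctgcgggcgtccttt
Sdhd holds NRF1 letters 78 to 70 bases and ETS letters 46 to 40 bases before its start, and ERR letters 36 to 44 bases after it, which are not shown. Ndufs5 holds NRF1 letters 97 to 89 bases before the start. None of the 5 motifs was found in the window of Ndufv3. Over windows from 250 bases before to 50 bases after the start, 63 of the 76 tested members had an entry in the table. NRF1 letters were present in 23 of them (36.5%, against 7.12% of all 27025 genes with a window), ETS letters in 16 (25.4%, against 9.93%), YY1 letters in 7 (11.1%, against 1.64%) and ERR letters in 2 (3.17%, against 0.466%). E-box letters were present in 6 (Atp5f1, Atp5g1, Atp5g3, Atp5l, Ndufa7 and Ndufv1; 9.52%, against 8.09%). None of these 6 was called by edgeR, but it called only 9.21% of all members tested, so nothing is read from that. Another protein-coding gene started on the opposite strand within the window of 15 members (23.8%, against 6.5% of all genes), among them Sdhd (beside Timm8b), Ndufv3 (Wdr4) and Ndufs6 (Mrpl36). The comparison genes include many that are not expressed, and a match is a description of letters only.

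The subunits differed little between the labels. Of the 76 members tested, 5 were higher in the libraries labelled Bmal1-/- (Ndufv3, Ndufs6, Ndufa3, Ndufs5 and Uqcrq) and 2 were lower (Sdhd and Cox6c2) at an adjusted p below 0.05. That is 9.21% of the members, against 31.1% of the 14353 genes tested, of which 16.2% were lower and 14.9% higher. Log2 fold changes of the members ran from -0.55 to 0.81, with a median of 0.11 and quartiles of -0.04 and 0.32. Over all genes tested the median was 0.02 and the quartiles were -0.36 and 0.34. The median standard error was 0.15 for the members and 0.18 for all genes, so the smaller share of calls did not come with larger errors. No member passed the criterion of the study, an absolute log2 fold change above 1 with an unadjusted p below 0.05, which 14.1% of all genes passed. With edgeR, 16 members had an unadjusted p below 0.05, and DESeq2, limma-voom and the likelihood ratio test also put 0 members past that criterion. The groups did not overlap in 7 members (9.21%, against 33.4% of all genes).

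**Figure D1:**
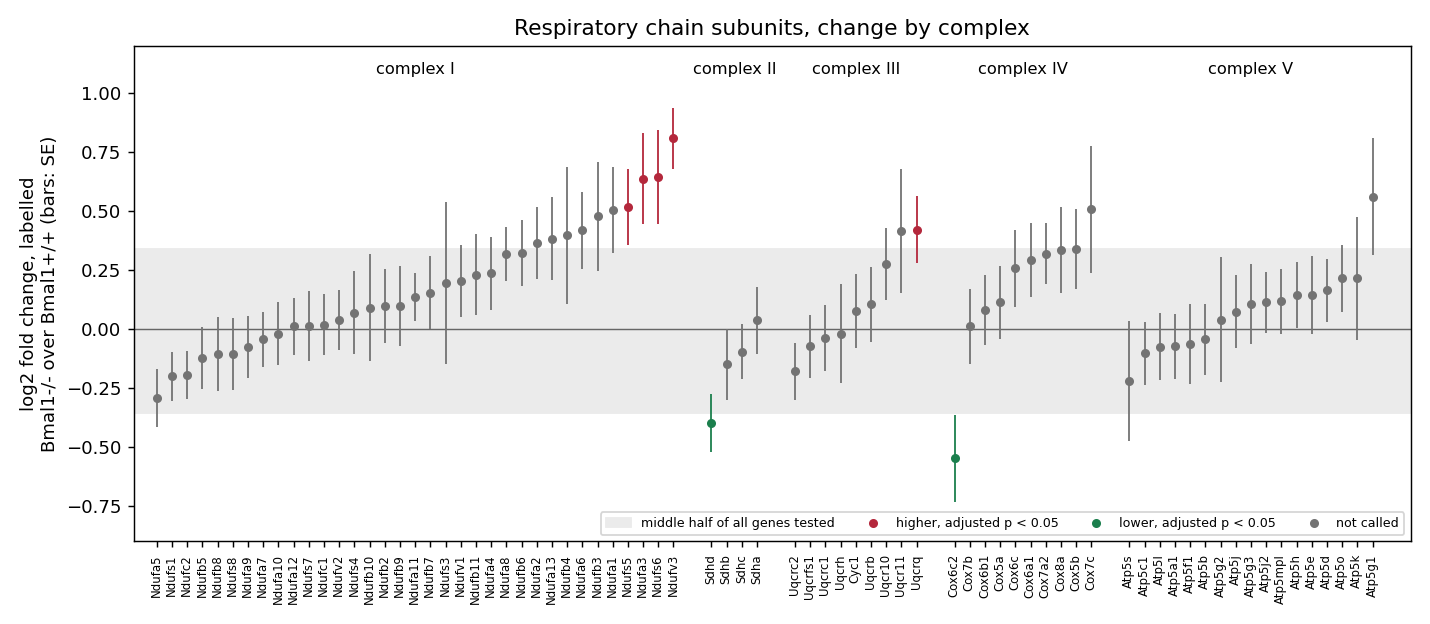
Log2 fold change of 75 of the 76 tested subunits (vertical axis, libraries labelled Bmal1-/- over Bmal1+/+, bars show 1 SE), ordered within complexes I to V. Red points were called higher (5) and green points lower (2), the grey band spans the quartiles of all 14353 genes (-0.36 to 0.34), and most subunits lie inside it.

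Complex I contributed 4 of the 5 higher members, all of them accessory subunits, which surround the catalytic core. Ndufv3, a small subunit of the NADH-oxidizing module (chromosome 17, 31520115-31531331, plus strand, GRCm38), was at 36.8, 41.6, 46.3 and 33.4 CPM in the Bmal1+/+ libraries and at 66.5, 72.2, 77.8 and 60.5 CPM in those labelled Bmal1-/-. All libraries of the second group were above all of the first, with means of 39.5 ± 5.7 and 69.2 ± 7.4 CPM (SD, n = 4). Its log2 fold change of 0.81 ± 0.13 was the largest of any member (1.75-fold, adjusted p = 0.00141), and it was called under all 21 alternative settings. Ndufs6, a zinc-binding subunit needed late in assembly (chromosome 13, 73319838-73328542, minus strand), was at 30.8, 37.8, 40.3 and 21.1 CPM against 48.8, 52.9, 60.2 and 41.3 CPM. The groups did not overlap, although the highest Bmal1+/+ library and the lowest library of the other label were close (log2 fold change 0.65 ± 0.20, adjusted p = 0.0332). Its first exon overlaps Mrpl36 on the other strand, and the counting is not stated to use strand, so reads of these genes cannot be told apart there. Leaving out any of 5 libraries in turn took the adjusted p to between 0.0538 and 0.0895.

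Ndufa3 and Ndufs5 were called as well, and are named because of that call. Ndufa3, a membrane-arm subunit, was at 24.0, 25.4, 34.1 and 30.7 CPM against 35.2, 46.3, 60.7 and 35.5 CPM, with all libraries labelled Bmal1-/- above the others (log2 fold change 0.64 ± 0.19, adjusted p = 0.0311). Its exons overlap those of Tfpt on the other strand, so the limit given for Ndufs6 holds here too. Such an overlap was found for 23 of the 76 tested members, of which these 2 were called. With 9.21% of all tested members called, nothing is read from this count. Ndufs5, an accessory subunit on the intermembrane face, was at 15.6, 22.9, 18.4 and 23.3 CPM against 25.6, 31.2, 33.6 and 24.4 CPM (0.52 ± 0.16, adjusted p = 0.0342). Its groups were also apart, by about 1 CPM at the nearest pair. Over the 29 members grouped as accessory subunits, edgeR called 4 higher (13.8%, near the 14.9% of all genes called higher) and none lower. Their median log2 fold change was 0.15. The adjusted p of Ndufa3 and Ndufs5 rose past 0.05 under 6 of the 21 alternatives each, up to 0.0837 and 0.0926.

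The 7 nuclear-encoded core subunits, which carry the flavin, the iron-sulfur clusters and the coenzyme Q site, gave 0 calls in edgeR, DESeq2 and limma-voom, and 1 had an unadjusted edgeR p below 0.05. Their median log2 fold change was 0.04. Ndufs1, an iron-sulfur subunit, was at 150, 152, 136 and 153 CPM against 133, 139, 132 and 110 CPM (log2 fold change -0.20 ± 0.10 (SE), adjusted p = 0.177), and the groups overlapped. Ndufv1, the flavin subunit, was at 85.6, 83.1, 81.3 and 63.8 CPM against 90.5, 90.1, 112 and 69.4 CPM (adjusted p = 0.338). Ndufa8, an accessory subunit, had groups that did not overlap (42.8 to 60.5 CPM against 61.5 to 68.8 CPM) with an adjusted p of 0.061.

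The X chromosome encodes 3 tested members, and the edgeR quasi-likelihood test called none of them. Ndufa1, a membrane-arm subunit, was at 25.7, 27.7, 31.5 and 27.5 CPM against 35.8, 43.3, 53.1 and 27.4 CPM (log2 fold change 0.50 ± 0.18, adjusted p = 0.0626). Only the last library labelled Bmal1-/- did not lie above the Bmal1+/+ range, and Ndufa1 was called higher by the likelihood ratio test and in the fit without that library. Ndufb11, another membrane-arm subunit, ranged from 76.2 to 104 CPM against 83.6 to 146 CPM (0.23 ± 0.17, adjusted p = 0.333). Cox7b of complex IV ranged from 95.7 to 114 CPM against 75.4 to 134 CPM (0.01 ± 0.16, adjusted p = 0.962).

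**Figure D2:**
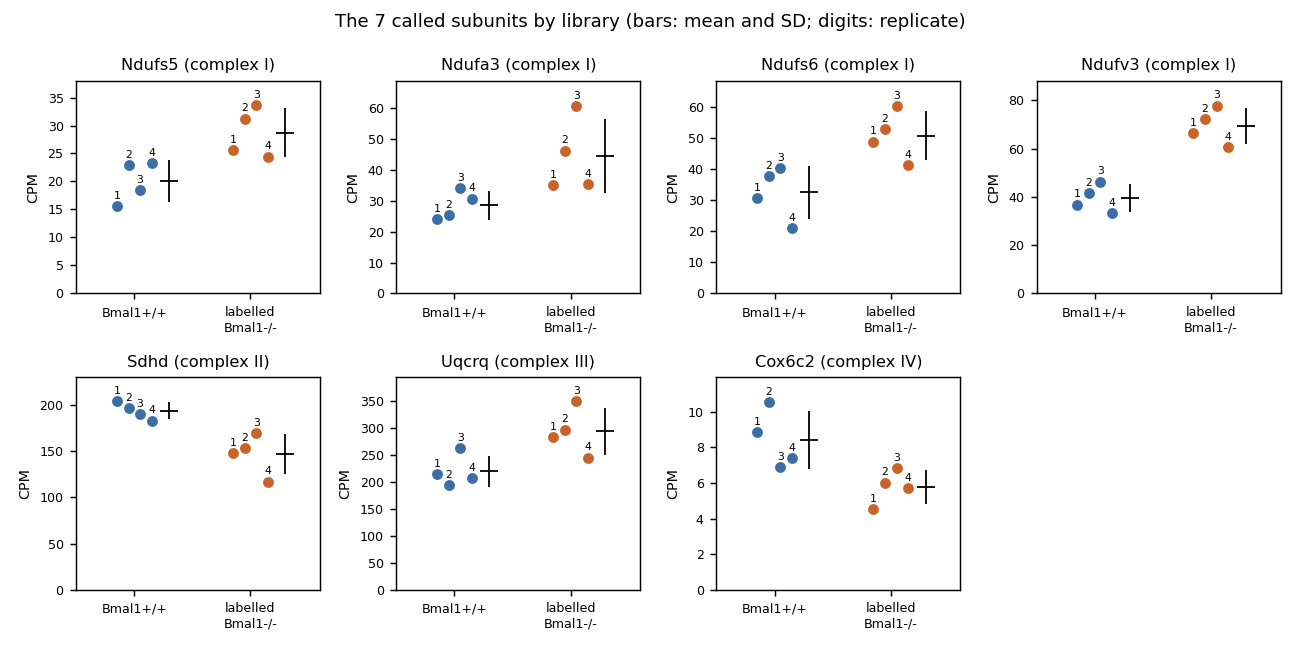
CPM (vertical axes, from 0) of the 7 called subunits in each library, blue for Bmal1+/+ and orange for the label Bmal1-/-, with replicate numbers and the mean and SD of 4 libraries. The groups are apart in every panel but Uqcrq, where replicate 3 of Bmal1+/+ (263 CPM) is above replicate 4 of the other label (246 CPM).

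Complex II, succinate dehydrogenase, is the only complex made of nuclear-encoded subunits alone and also serves the citrate cycle. Sdhd, a membrane anchor that holds heme and the coenzyme Q site (chromosome 9, 50596357-50603812, minus strand), was at 204, 197, 190 and 183 CPM in Bmal1+/+ and at 148, 154, 170 and 117 CPM under the other label. Every library labelled Bmal1-/- was below every Bmal1+/+ library, and the means were 194 ± 9.1 and 147 ± 22 CPM (SD, n = 4). The log2 fold change of -0.40 ± 0.12 (1.32-fold lower) passed with an adjusted p of 0.0355, but leaving out any of 6 libraries in turn raised it to between 0.0505 and 0.0868.

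The other 3 subunits of complex II were not called. Sdha, the flavoprotein that oxidizes succinate, was at 544, 539, 518 and 462 CPM against 571, 580, 558 and 407 CPM (0.04 ± 0.14, adjusted p = 0.868). Sdhb, the iron-sulfur subunit, was at 226, 244, 221 and 222 CPM against 217, 223, 238 and 146 CPM (-0.15 ± 0.15, adjusted p = 0.49). Sdhc, the partner anchor of Sdhd, was at 185, 176, 167 and 172 CPM against 163, 170, 187 and 135 CPM (-0.10 ± 0.12, adjusted p = 0.565). In all 4 genes the lowest of the 8 values was that of replicate 4 labelled Bmal1-/-. Per kilobase of exon, Sdhd stood highest in Bmal1+/+ at 157 ± 7.4 CPM per kilobase and Sdhc lowest at 53.9 ± 2.3, and under the other label Sdha stood first at 128 ± 20 with Sdhd at 119 ± 18, which do not differ beyond their spread. With the length of the principal transcript in place of all exons, Sdhb led in Bmal1+/+ at 200 CPM per kilobase.

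Complex III had 1 call among 9 members. Uqcrq, a small subunit next to cytochrome b (chromosome 11, 53427922-53430831, minus strand), was at 215, 195, 263 and 207 CPM against 284, 298, 351 and 246 CPM. Replicate 3 of Bmal1+/+ lay above replicate 4 of the other label. The log2 fold change was 0.42 ± 0.14 with an adjusted p of 0.0489, and 12 of the 21 alternatives took the adjusted p past 0.05, up to 0.128. The 5 small subunits had a median log2 fold change of 0.28. The core proteins Uqcrc1 (245, 274, 266 and 290 CPM against 267, 282, 300 and 199 CPM) and Uqcrc2 (219, 229, 220 and 240 CPM against 201, 225, 214 and 162 CPM) and the redox subunits Cyc1 and Uqcrfs1 were not called, with fold changes from -0.18 to 0.08. Uqcrfs1, the Rieske iron-sulfur protein, had the highest level per length of the complex (187 ± 10 against 177 ± 29 CPM per kilobase), and was at 250, 261, 237 and 269 CPM against 238, 253, 286 and 190 CPM.

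In complex IV, cytochrome c oxidase, 1 of 10 tested members was called. Cox6c2, a single-exon copy of Cox6c (chromosome 12, 56373593-56373823, minus strand), was at 8.83, 10.5, 6.91 and 7.39 CPM against 4.55, 6.01, 6.82 and 5.69 CPM. The groups were apart only narrowly (log2 fold change -0.55 ± 0.18, adjusted p = 0.0475), and 9 of 21 alternatives took the adjusted p past 0.05, up to 0.133. It rests on 73 to 165 counts per library, and 52.8% of its 50-base stretches also occur elsewhere, so reads of Cox6c may have been split between these rows. Cox6c itself, at 58.8 to 83.6 CPM against 66.6 to 103 CPM, was not called (0.26 ± 0.16, adjusted p = 0.256). The other 9 tested members had fold changes of 0.01 to 0.51.

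The isoform families of complex IV showed the forms of most tissues and almost none of the muscle and testis forms. Cox6a1, the highest member of the complex per length (320 ± 45 against 392 ± 72 CPM per kilobase), was at 206, 241, 260 and 192 CPM against 258, 277, 343 and 223 CPM, while the muscle form Cox6a2 had at most 1 count in any library. Cox7a2 was at 81.0, 94.6, 96.3 and 102 CPM against 114, 124, 134 and 93.7 CPM (0.32 ± 0.13, adjusted p = 0.0876), whereas its muscle counterpart Cox7a1 had 13, 7, 7 and 15 counts against 4, 0, 9 and 1. Cox6b1 was at 90.8 to 106 CPM against 76.4 to 128 CPM, and the testis form Cox6b2 had 0 to 10 counts. Cox8a was at 121, 138, 159 and 89.1 CPM against 147, 172, 188 and 134 CPM (0.34 ± 0.18, adjusted p = 0.188). Its muscle form Cox8b had 4 counts in a single library labelled Bmal1-/- and 0 in the others, and Cox8c and Cox7b2 were at 0 throughout, where a count of 0 allows up to 3 counts, or 0.163 to 0.213 CPM. This floor covers counting error only.

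No member of complex V was called in either direction, among 17 tested. In edgeR only Atp5g1 had an unadjusted p below 0.05, and DESeq2, limma-voom and the likelihood ratio test also called 0. The 5 subunits of the catalytic head and central stalk (Atp5a1, Atp5b, Atp5c1, Atp5d and Atp5e) had fold changes of -0.10 to 0.16, with a median of -0.04. Atp5b, the catalytic subunit, was at 1026, 1079, 1049 and 903 CPM against 1039, 1086, 1059 and 753 CPM. Atp5a1, its non-catalytic partner and the member with the highest level per exon length (250 ± 15 against 237 ± 33 CPM per kilobase), was at 803, 841, 738 and 748 CPM against 786, 794, 807 and 589 CPM (-0.07 ± 0.14, adjusted p = 0.721). By principal transcript length Atp5b led instead, at 530 against 514 CPM per kilobase. The 4 peripheral stalk subunits had fold changes of -0.06 to 0.21.

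The c-ring, the rotor in the membrane, is encoded by Atp5g1, Atp5g2 and Atp5g3, which make the same mature protein. Atp5g3 was at 228, 261, 270 and 262 CPM against 296, 309, 311 and 184 CPM, so that 3 libraries labelled Bmal1-/- were above the Bmal1+/+ range and 1 was below it (0.11 ± 0.17, adjusted p = 0.668). Atp5g1 was at 19.9, 12.3, 18.4 and 18.7 CPM against 23.4, 28.7, 35.3 and 14.96 CPM (0.56 ± 0.25, adjusted p = 0.114). Atp5g2 had 17 to 35 counts per library, but its copies held most of the reads that match it, as given below.

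Summed over the members, levels overlapped between the labels in every complex. The sums for complex I were 2200, 2385, 2387 and 2107 CPM in Bmal1+/+ and 2475, 2600, 3039 and 2028 CPM under the other label, a ratio of means of 1.12. Complex II gave 1160, 1155, 1097 and 1039 CPM against 1098, 1127, 1153 and 806 CPM (ratio 0.94), and complex III 1329, 1447, 1440 and 1397 CPM against 1467, 1572, 1711 and 1154 CPM (1.05). Complex IV gave 839, 962, 959 and 802 CPM against 996, 1070, 1265 and 818 CPM (1.17), and complex V 3199, 3395, 3310 and 3266 CPM against 3388, 3505, 3736 and 2571 CPM (1.00). In every complex replicate 3 was the highest and replicate 4 the lowest of the libraries labelled Bmal1-/-. No test was made on these sums.

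The 13 subunits encoded by the mitochondrial genome showed another pattern. They summed to 70090, 65960, 63730 and 87310 CPM in Bmal1+/+ and to 51140, 49400, 48920 and 42050 CPM under the other label, so that the groups did not overlap, with a ratio of means of 0.667 (0.694 without replicate 4 labelled Bmal1-/-). Of the 13, edgeR called 7 lower (53.8%, against 16.2% of all genes) and 0 higher, with a median log2 fold change of -0.62, and 10 had an unadjusted p below 0.05, all lower. DESeq2 called 10 and limma-voom 8 of them lower, whereas the fit with the replicate block called 2 and limma on FPKM values 3. The complex IV subunit mt-Co1, for example, went from 25100 ± 3320 to 15150 ± 1583 CPM (adjusted p = 0.0122). The ratio of mitochondrially to nuclear-encoded subunits was 6.93 to 10.1 in Bmal1+/+ and 4.49 to 5.70 under the other label. No test was made on these sums or on the share called, and the 13 genes need not vary independently of each other.

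**Figure D3:**
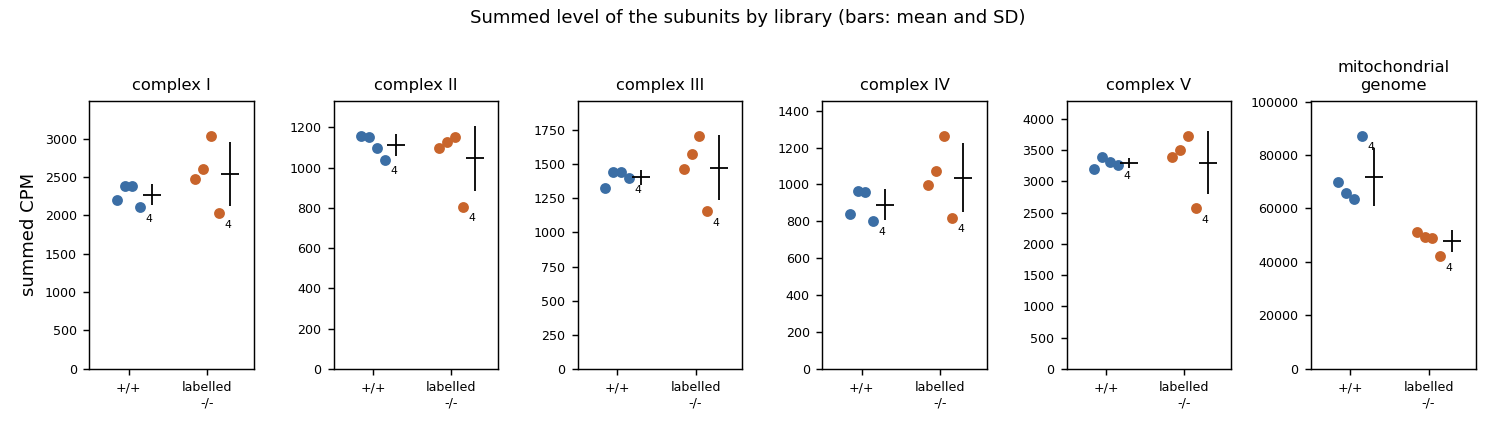
Summed CPM (vertical axes, from 0) of the subunits of complexes I to V and of the 13 mitochondrially encoded subunits in each library, blue for Bmal1+/+ and orange for the label Bmal1-/-, with mean and SD of 4 libraries and replicate 4 marked. The nuclear-encoded sums overlap in every complex, and the mitochondrially encoded sums (63730 to 87310 against 42050 to 51140 CPM) do not.

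Among the libraries labelled Bmal1-/-, the members as a whole were shifted up in replicate 3 and down in replicate 4. Replicate 3 had the highest of the 8 values in 54 of the 76 members and the lowest in none, with a median deviation of 0.35 (log2) from the mean of all libraries. Replicate 4 had the lowest of the 8 values in 36 members and the highest in none, with a median deviation of -0.27. Within their group, replicate 3 was the highest in 64 members and replicate 4 the lowest in 67. Bmal1+/+ medians lay between -0.11 and 0.03. Around such shifts the members scattered more in Bmal1+/+, where the SD over members of the log2 deviation from the group mean was 0.153 to 0.244 per library, against 0.113 to 0.155 under the other label. The SD of the summed level over all members was accordingly 355 CPM around 8968 in Bmal1+/+ and 1481 CPM around 9394 under the other label, while that of the mitochondrially encoded sum was 10690 and 3998 CPM.

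The number of calls depended on which library was left out, and it rose most without replicate 4 labelled Bmal1-/-. Without that library, 14 of 77 members tested were higher and 1 was lower (Sdhd). Of all 14775 genes in that fit, 2212 were higher and 2501 lower, together 31.9%. The median of the members was 0.21. The higher members then included all 5 named above, with Ndufa1 (0.65 ± 0.15, adjusted p = 0.00871), Ndufa2, Ndufa6, Ndufb6, Uqcr10, Cox7a2 (0.41, adjusted p = 0.0199), Cox7c and Atp5g1 (0.75 ± 0.19, adjusted p = 0.0165). Without replicate 3 labelled Bmal1-/-, only Ndufv3 was higher, Sdhd and Cox6c2 were lower, and the median was 0.01. Without replicate 1 of Bmal1+/+ or replicate 2 labelled Bmal1-/-, Ndufv3 was the only member called.

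**Figure D4:**
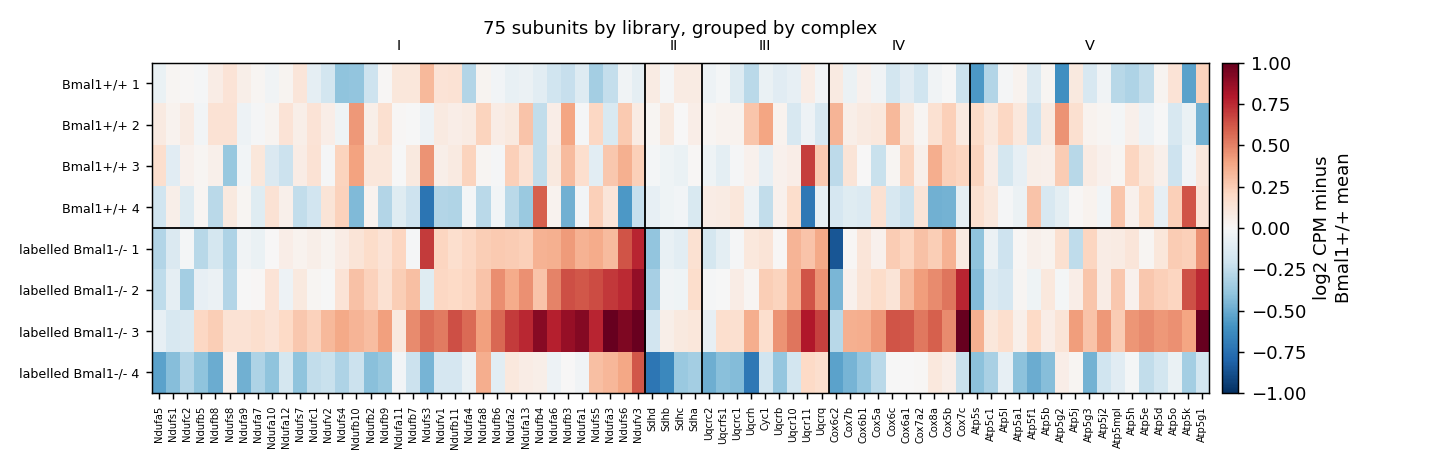
Log2 CPM of 75 of the 76 tested subunits (columns, by complex and then by fold change) in each library (rows), minus the Bmal1+/+ mean of that subunit (color scale from -1 to 1). Replicate 3 labelled Bmal1-/- is red in most columns and replicate 4 is mostly blue, while the rightmost complex I columns are red in all 4 libraries of that label except for pale values in replicate 4.

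Several subunits have near-identical copies in the genome, and the counts show that reads were placed on the copies. For 15 members at least 10% of the 50-base stretches of the principal transcript also occur in genes outside the member list. Atp5g2 had 210 counts over the 8 libraries and its copies Gm10175 and Gm10231 had 15423, so that 1.34% of the joint counts lay on the subunit. The share was 6.20% for Ndufb4 (copy Ndufb4c), 7.67% for Cox7c (Gm10012 and Gm12338), 8.27% for Atp5l (8 copies) and 12.1% for Ndufs3 (Gm12251), and 48.9% to 56.2% for Ndufa12, Atp5h, Ndufs5 and Cox5b. The low levels of the first 5 are therefore uncertain, as reads cannot be assigned between a subunit and its copies.

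With the counts of the copies added, 6 members were higher and 2 lower (Sdhd and Cox6c2). Neither of these 2 had counts added. The copy of Cox6c2, Cox6c, is itself a member and was left apart, so this fit does not check the Cox6c2 call. Ndufa12, an accessory subunit that is the last to join complex I, went from a log2 fold change of 0.01 to 0.38 ± 0.11 (adjusted p = 0.0256), with a joint level of 32.4 ± 2.5 against 42.1 ± 4.5 CPM. Atp5l moved from -0.07 to 0.28 ± 0.14 (adjusted p = 0.166) and Cox7c from 0.51 to 0.10 ± 0.15 (adjusted p = 0.644). Ndufs5 was still called higher with BC002163 added (0.48 ± 0.12, adjusted p = 0.0149). The joint level of Atp5g2 was 123 ± 9.5 against 129 ± 13 CPM, in place of 1.68 against 1.72 CPM on its own row.

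**Figure D5:**
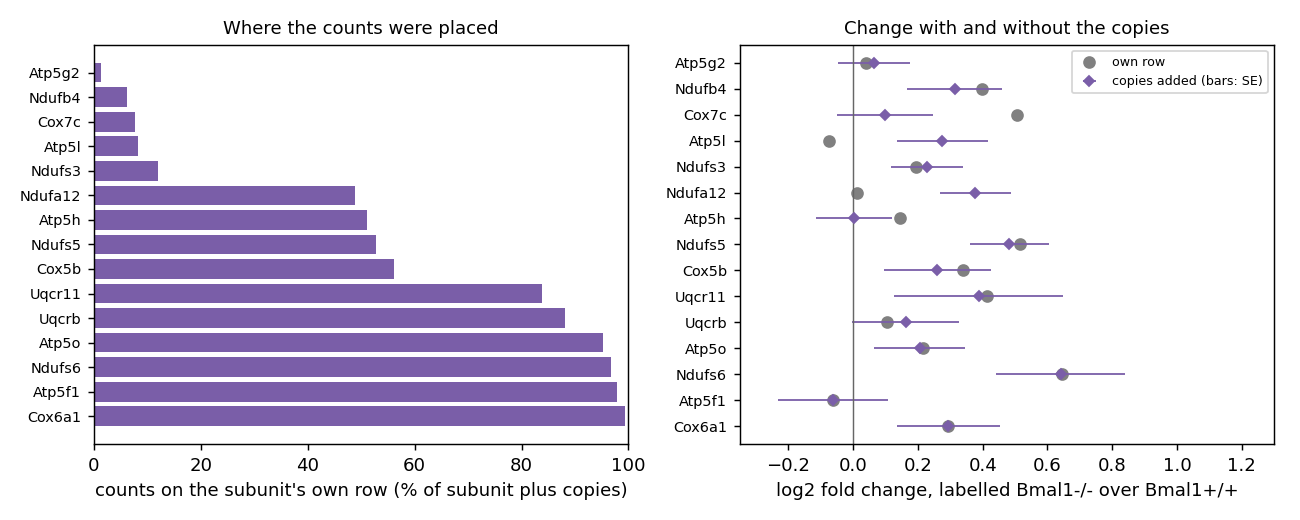
Left, percentage of counts placed on the subunit's own row among all counts on the subunit and its near-identical copies, for 15 subunits, from 1.34% (Atp5g2) to 99.4% (Cox6a1). Right, log2 fold change on the own row (grey) and with copies added (purple, bars show 1 SE), which differs most for Cox7c, Ndufa12 and Atp5l.

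Most subunits are short, and short transcripts moved with the label in general. The 44 members with a principal transcript under 1000 bases had a median log2 fold change of 0.18, and the 32 longer members had one of 0.00. Over all genes tested the medians were 0.23 for the 1760 under 1000 bases and 0.00 for the 12582 longer ones. With offsets for length and GC content, the median of the members was -0.03, with 1 member higher (Ndufv3) and 5 lower (Sdhd, Cox6c2, Ndufa5, Ndufa7 and Ndufc2).

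Genes that work with the subunits were called about as often as genes in general. In 10 lists of partner genes 122 of 126 genes were tested, 15 of them lower (12.3%, against 16.2% of all genes) and 19 higher (15.6%, against 14.9%), together 27.9% against 31.1%. The counts by list below are given as values, and nothing particular to a list is read from them. Of the assembly factors, 3 of 16 for complex I were higher and 1 lower, 5 of 23 for complex IV were higher and 1 lower, and 1 of 5 for complex V (Atpaf1) was higher. Of 10 factors for complexes II and III, edgeR called 0 (3 had an unadjusted p below 0.05) and DESeq2 called 1. The copper chaperones Sco2 (13.3 ± 2.4 to 51.7 ± 15 CPM, log2 fold change 1.95, adjusted p = 0.000204) and Cox19 (14.5 ± 2.8 to 34.9 ± 6.5 CPM, 1.27, adjusted p = 0.000703) and the complex I factor Dmac1 (15.1 ± 1.8 to 32.2 ± 7.3 CPM, 1.09, adjusted p = 0.00132) had larger fold changes than any subunit. Among 9 subunits and partners that the naming rule missed, Usmg5, Higd1a and Higd2a were higher and Atpif1, the inhibitor of ATP synthase, was lower (12.7 ± 1.5 to 8.63 ± 0.71 CPM, adjusted p = 0.0101). Cox4i1 of complex IV was also in this list and was not called (162 ± 8.8 to 222 ± 55 CPM, edgeR adjusted p = 0.0655). The counts and sums by complex leave these genes out.

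In the pathways that feed the chain, 1 of 13 genes of coenzyme Q synthesis was lower and 4 were higher. Coq10b, a coenzyme Q binding protein, fell by 2.54 on the log2 scale (103 ± 16 to 17.7 ± 5.6 CPM, adjusted p = 3.8e-05), and Coq8a, an atypical kinase of the pathway, rose by 1.88 (136 ± 34 to 504 ± 128 CPM, adjusted p = 0.000332). Among 17 citrate cycle genes, Idh2 (-1.38) and Pdha1 (-0.57) were lower and citrate synthase, Cs, was higher (0.56). Of 8 mobile carriers and entry enzymes, Sqor and Gpd2 were lower and Dhodh was higher. Of 10 nucleotide and phosphate carriers, 4 of the 7 tested were lower (Ucp2, Slc25a4, Vdac1 and Vdac2) and 0 were higher in edgeR, DESeq2 and limma-voom, also at an unadjusted p below 0.05. Of 15 regulators of mitochondrial biogenesis, Ppargc1a, the coactivator PGC-1 alpha, fell by 1.502 (28.5 ± 5.6 to 10.0 ± 3.1 CPM, adjusted p = 0.000996) and Esrrg, an estrogen-related receptor, fell by 2.69 (9.08 ± 1.5 to 1.39 ± 0.74 CPM, adjusted p = 0.000331), while Polrmt, the mitochondrial RNA polymerase, rose by 0.45.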

How the data were processed

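RNA described as the GFP-negative fraction of tumors was sequenced as paired-end reads in 8 libraries. According to the methods, the authors aligned reads with HISAT2 to GRCm38 and counted fragments with StringTie, while the submitters' processing notes name CASAVA 1.8 and TopHat2 2.0.6 with mm10/GRCm38. RNA input is also given differently in both sources, and strand use in counting is not given in the sources used here. The deposited raw counts per gene were used as they are. The deposited FPKM values of the authors (counts over library total and gene length) entered an alternative only.

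Gene identifiers were matched to GENCODE M21 (Ensembl 96, GRCm38) instead of the release of the study, and 55227 of 55487 (99.5%) were found. The 4 libraries of each label were compared over the 14353 genes that passed filterByExpr, by the quasi-likelihood test of edgeR 4.0.16 after TMM scaling. The prior count was 0.125, and calls were made at a Benjamini-Hochberg adjusted p below 0.05. Fits were tested on simulated data. Limma 3.58.1 and DESeq2 1.42.0 gave alternatives. Levels between genes were compared per kilobase of exon. Promoter windows came from RefSeq (GRCm38.p6). Named with values by rule were the extreme called members of each complex (up to 2 each way), the Sdh genes, X-linked members, isoform families and the highest member per length, plus others called. Some other members, such as Ndufs1, Ndufv1, Ndufa8, Uqcrc1, Uqcrc2, Atp5b and Cox6c, were given values without such a rule. Members and lists were chosen with earlier results of these data known. Total counts of 14054825 to 18449143 put 3 counts at 0.163 to 0.213 CPM. Single values of some genes are not reported here.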

Additional observations from a re-analysis of the deposited data

Results flagged for a closer look

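Among 58 groups of 4 values examined (the named subunits and the sums by complex), 4 held a library whose gap to the nearest value exceeded Dixon's limit for 4 values. Chance alone flags about 1 in 20 groups, but these groups share libraries and the sums contain named subunits, so they are not independent. All 4 were replicate 4 labelled Bmal1-/-, at the low end. Sdha was at 407 CPM there, against 558 to 580 CPM in the other 3 libraries of that label. Atp5a1 was at 589 CPM against 786 to 807 CPM, and Atp5g3 at 184 CPM against 296 to 311 CPM. The summed level of complex II was 806 CPM against 1098 to 1153 CPM.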

How the results depend on the processing

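In 21 alternative fits, 14 of 24 named subunits kept their call in each, among them Ndufv3 as higher and 13 that were not called, and no called subunit changed direction. The 2 lower members became 0 by library size only and with no filter on low counts, 5 with length and GC offsets, 1 with limma on log2 FPKM plus 0.1 and 0 to 2 when leaving out each library. The 5 higher members became 2 with no filter, 1 with the offsets and 1 to 14 when leaving out each library (14 without replicate 4 labelled Bmal1-/-). Complex I had 3 lower and 1 higher with the offsets, 2 higher with no filter and 1 to 9 higher when leaving out each library. The call in complex II was 0 by library size only, with no filter and with FPKM, and 0 to 1 when leaving out libraries. The call in complex III was 0 with the likelihood ratio test, RLE, upper quartile, no filter, at least 10 counts in every library and the offsets, and 0 to 2 when leaving out libraries. The lower call in complex IV was 0 by library size only and with no filter, and 0 to 1 when leaving out libraries, where higher calls reached 0 to 2 in complex IV and 0 to 1 in complex V. With the offsets the median log2 fold change was 0.039 in complex IV and -0.10 in complex V. Genes lower ran from 1893 to 2501 and higher from 1706 to 2212 when leaving out libraries, partner genes lower from 12 to 18 and higher from 10 to 24, and mitochondrially encoded subunits lower from 5 to 7. The cause of these shifts was not tested. No filter doubles the genes over which p is adjusted.

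Libraries with the same replicate number did not pair (correlations of their deviations -0.064, 0.063, 0.044 and 0.036). The sample title of replicate 4 labelled Bmal1-/- carries another number than its replicate number. With the replicate block 1 member was lower and 9 higher, complex I had 7 higher, complex IV 0 lower and 1 higher, and 2 mitochondrially encoded subunits were lower (3 with FPKM).

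The median level per length in Bmal1+/+ (CPM per kilobase, complexes I to V) was 35.3, 114, 77.2, 71.5 and 41.8 by all exons, 50.7, 168, 120, 85.1 and 74.97 by the longest transcript, and 58.3, 168, 145, 123 and 119 by the principal transcript. Copies, FPKM, principal length, and the alternatives for partner genes and Arntl were chosen after seeing the data. Depth limits Cox6c2 (73 to 165 counts) and the muscle and testis isoforms (0 to 15 counts).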
